A study of Mus musculus with 2 samples.

Results

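The transcripts described here are the antisense non-coding transcripts that were expressed in testes of mice at postnatal day 9 (P9). GENCODE M21, the mouse gene annotation used here, gives the class antisense to non-coding genes placed, as a rule, on the strand opposite a protein-coding gene, although 30 of the members described here overlapped none. Members were the gene entries of this class whose RPKM (reads per kilobase of gene, scaled to library size) averaged 1 or more across the 2 libraries, without Kcnq1ot1, Airn and the Snhg genes. There were 238 of them, out of 1790 antisense entries at any level and 39695 gene entries in all. The measured level itself chose the members, so their levels are given as a description. Just inside the limit were Gm16764, at 0.885 and 1.14 RPKM, and 1810064F22Rik, at 0.708 and 1.33 RPKM in the control and the mutant library. Just outside were Gm20404, at 0.648 and 1.33 RPKM, and Gm12786, at 1.09 and 0.884 RPKM. Another 477 antisense entries were listed at 0 in both libraries.

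The data comprised 1 RNA-seq library from whole testes of control males and 1 from Bcas2F/-;Vasa-Cre males, both 9 days old. Bcas2 encodes a subunit of the complex that activates the spliceosome. Bcas2 was floxed on one chromosome and deleted on the other in both genotypes, and control males lacked Vasa-Cre, a transgene whose promoter drives Cre recombinase in germ cells from fetal life on, so that somatic cells of the testis kept the floxed allele. The labels give C57BL/6 as the strain, the study's methods a mixed background with 129, and the number of mice behind each library is not given in the sources used here. The library size implied by the RPKM values was 19918750 for control and 19331687 for Bcas2F/-;Vasa-Cre testes. The study reports larger numbers of mapped reads for both libraries. Whether the units counted here, called reads below, are reads or read pairs is not given in the sources used here. With 1 library per genotype there was no replicate check, no difference below was tested, and intervals, which are 95% Clopper-Pearson intervals of the reads, cover counting error only. Bcas2 itself was at 39.5 RPKM in the control and 25.7 RPKM in the Bcas2F/-;Vasa-Cre library, from 1410 and 888 reads, a log2 ratio of -0.60.

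Natural antisense transcripts are made from the strand opposite a gene, often from a start near the promoter of that gene or from within its introns. Some act on the gene they overlap, by interference between polymerases, by pairing with its RNA or by bringing chromatin modifiers to the locus, whereas others act elsewhere in the cell or have no known function. Testis is known as a tissue rich in long non-coding transcripts. Reads of an antisense transcript can be told from those of its partner only where the library keeps strand. The kit used here is not stated to do so, and the strand setting of the counting is not given in the sources used here, so reads in exonic bases shared by both strands, and reads from unspliced introns of the partner, could not be assigned to a strand. The share of exonic bases that lie in partner exons is therefore given for most pairs on which the results turn, and the share in partner introns for some. Within their own strand, 0 members shared exonic bases with a protein-coding gene.

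Promoters of 4 members are given here, 2 from members that differed by more than 1.5-fold between the libraries (Rab26os and 2900089D17Rik) and 2 that lie head to head with a gene for an RNA-binding protein or a homeobox gene (Rbm3os and Hoxd3os1). Each runs from 250 bases before to 50 bases after the start that RefSeq gives on GRCm38.p6, is written 5′ to 3′ along the antisense transcript, and has motif matches in capitals. The windows are chr17:24528001-24528300 on the plus strand for Rab26os, chr5:144256106-144256405 on the minus strand for 2900089D17Rik, chrX:8145177-8145476 on the plus strand for Rbm3os and chr2:74716081-74716380 on the minus strand for Hoxd3os1.
Rab26os: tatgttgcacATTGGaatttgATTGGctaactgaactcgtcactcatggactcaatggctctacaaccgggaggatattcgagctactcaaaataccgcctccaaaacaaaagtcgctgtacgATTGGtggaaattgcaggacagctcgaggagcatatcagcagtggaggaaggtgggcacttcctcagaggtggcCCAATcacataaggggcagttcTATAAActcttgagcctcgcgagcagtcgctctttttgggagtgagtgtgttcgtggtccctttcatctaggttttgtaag
2900089D17Rik: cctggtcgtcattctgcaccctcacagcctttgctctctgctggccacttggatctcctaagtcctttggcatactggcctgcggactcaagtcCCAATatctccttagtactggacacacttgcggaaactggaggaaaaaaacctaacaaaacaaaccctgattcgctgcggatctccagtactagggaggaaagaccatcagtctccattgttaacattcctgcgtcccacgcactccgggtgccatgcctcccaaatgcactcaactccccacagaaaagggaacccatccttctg
Rbm3os: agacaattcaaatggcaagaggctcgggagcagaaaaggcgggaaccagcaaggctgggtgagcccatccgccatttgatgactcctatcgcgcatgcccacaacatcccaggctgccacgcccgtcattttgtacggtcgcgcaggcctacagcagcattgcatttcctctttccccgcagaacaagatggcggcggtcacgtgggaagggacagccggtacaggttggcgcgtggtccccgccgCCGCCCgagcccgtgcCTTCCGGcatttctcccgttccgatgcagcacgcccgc
Hoxd3os1: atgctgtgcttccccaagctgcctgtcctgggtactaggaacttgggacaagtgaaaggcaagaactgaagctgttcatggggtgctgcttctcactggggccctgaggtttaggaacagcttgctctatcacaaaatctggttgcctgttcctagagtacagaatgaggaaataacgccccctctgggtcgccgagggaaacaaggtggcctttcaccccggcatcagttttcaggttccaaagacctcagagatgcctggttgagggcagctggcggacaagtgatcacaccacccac
The Rab26os window held TATAAA from -31 to -26 relative to the start and CCAAT at 4 places, 1 of them along the transcript and the others on the opposite strand. The window of 2900089D17Rik held a single CCAAT, from -156 to -152. That of Rbm3os held GGGCGG from -4 to 1 and CCGGAAG from 12 to 18, both on the opposite strand, and that of Hoxd3os1 held none of the motifs searched.

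RefSeq windows could be matched by symbol for 124 members, and for 79 of them the RefSeq start lay within 50 bases of the start in GENCODE M21. These 79 windows had a median GC content of 61.7% and a median of 16 CG pairs. All 32851 RefSeq windows had medians of 52.7% and 7, those of expressed protein-coding genes 60.7% and 20, and those of expressed long intergenic non-coding RNAs (lincRNAs) 55.7% and 13. Each motif was counted on both strands, whether or not it overlapped another motif. GGGCGG, the GC box bound by Sp factors, was in 59.5% of the members' windows and 35.7% of all windows, and in 62.3% of those of expressed protein-coding genes. TATAAA was in 5.06% of the members' windows, 13.6% of all windows and 7.06% of those of expressed protein-coding genes. CCAAT was in 39.2% and 37.4% of the members' and of all windows. The ETS motif CCGGAAG was in 12.7% of the members' windows, 8.86% of all windows and 16.7% of those of expressed protein-coding genes. In the same order, the cAMP response element TGACGTCA was in 1.27%, 1.79% and 2.95%, and the palindromic NRF1 motif in 0%, 0.971% and 2.03%. Windows of expressed lincRNAs held GGGCGG in 47.2% and TATAAA in 14.2%. By GC content and GC boxes, these 79 windows together thus lay nearer to those of expressed protein-coding genes than to the average window. By position, the 22 windows of members head to head with their gene had medians of 14.5 CG pairs and 62.3% GC, and the 27 of members tail to tail 28 and 64.3%. The 15 windows of members inside a gene had medians of 5 and 50%, below those of all windows, so the nearness did not hold for them. They cover few of the 69 members inside a gene.

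Most members were weakly expressed. Their median was 1.89 RPKM in the control and 2.08 RPKM in the Bcas2F/-;Vasa-Cre library, 205 had a mean RPKM under 5 and 16 had one of 10 or more. Counted across the pair of libraries, a member had between 7 and 5784 reads, with a median of 73, and 35 members had fewer than 30. All members together took 20212 reads (0.101%) of the control and 22322 reads (0.115%) of the Bcas2F/-;Vasa-Cre library. They were short and had few exons, with a median of 3 exons in the isoform with the most exons and 1259.5 exonic bases over all isoforms, and in 4.62% every isoform had a single exon. The median GC content of their exons was 49.99%.

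The 10 members with the highest mean RPKM included well known transcripts. Gt(ROSA)26Sor (chromosome 6, 113067428 to 113077333, minus strand) is the transcript of the Rosa26 locus, active in nearly all cells and widely used to place transgenes. It was at 31.7 RPKM in the control and 43.3 RPKM in the Bcas2F/-;Vasa-Cre library, from 468 and 621 reads. Its log2 ratio of RPKM, 0.45, had a counting interval of 0.28 to 0.63. Tug1 (chromosome 11, 3639785 to 3649673, minus strand), a long non-coding RNA needed for male fertility in mice, was at 34.0 and 35.7 RPKM, from 2865 and 2919 reads. Its log2 ratio was 0.07, with 0.14 as the upper end of its counting interval, so the deepest measured member was nearly level between the libraries.

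Gm17344 was at 24.8 and 25.3 RPKM. It shared 87.3% of its exonic bases with Ap1g1, a subunit of the clathrin adaptor AP-1, the largest share of all members, so that nearly all of its reads could belong to either strand. E130307A14Rik was at 21.3 and 24.3 RPKM, and Rab26os at 17.2 and 28.1 RPKM. Rab10os was at 17.1 and 19.0 RPKM, and 1500015A07Rik at 15.5 and 18.5 RPKM. 4933431E20Rik was at 14.1 and 16.5 RPKM, Sp3os at 12.5 and 17.1 RPKM, and Brip1os at 13.5 and 15.4 RPKM. Each of the 10 had its higher value in the Bcas2F/-;Vasa-Cre library.

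The genes on the other strand of these abundant members ranged from nearly silent to well expressed. The largest difference was that of Gm11084, opposite Sp3os, at 5.09 and 11.995 RPKM, a log2 ratio of 1.09, and Rab26, opposite Rab26os, was at 1.29 and 0.945 RPKM. The others differed less on this scale. Thumpd3, tail to tail with Gt(ROSA)26Sor and sharing 8.55% of its exonic bases, was at 53.9 RPKM in the control and 51.4 RPKM in the Bcas2F/-;Vasa-Cre library. Morc2a, a chromatin remodelling ATPase whose start lies 482 bases from that of Tug1, was at 60.3 and 64.4 RPKM, and Tug1 shared 4.96% of its exonic bases with it. Traf3ip2, an adaptor of interleukin-17 signalling tail to tail with E130307A14Rik, was at 12.8 and 14.6 RPKM and so below its antisense transcript, with 4.10% shared. Rab10, a small GTPase of vesicle transport, was at 55.4 and 59.2 RPKM, with 2.33% of Rab10os shared. Ints2, a subunit of the Integrator complex that lies inside the span of Brip1os, was at 34.1 and 34.7 RPKM, with 7.88% shared. In contrast, Eps8l3, the gene with the longest overlap with 4933431E20Rik, was nearly silent, at 0.0221 RPKM in the control and listed at 0 in the other library, whereas the glutathione transferase gene Gstm5, which 4933431E20Rik also overlaps, was at 80.6 and 87.3 RPKM.

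**Figure D1:**
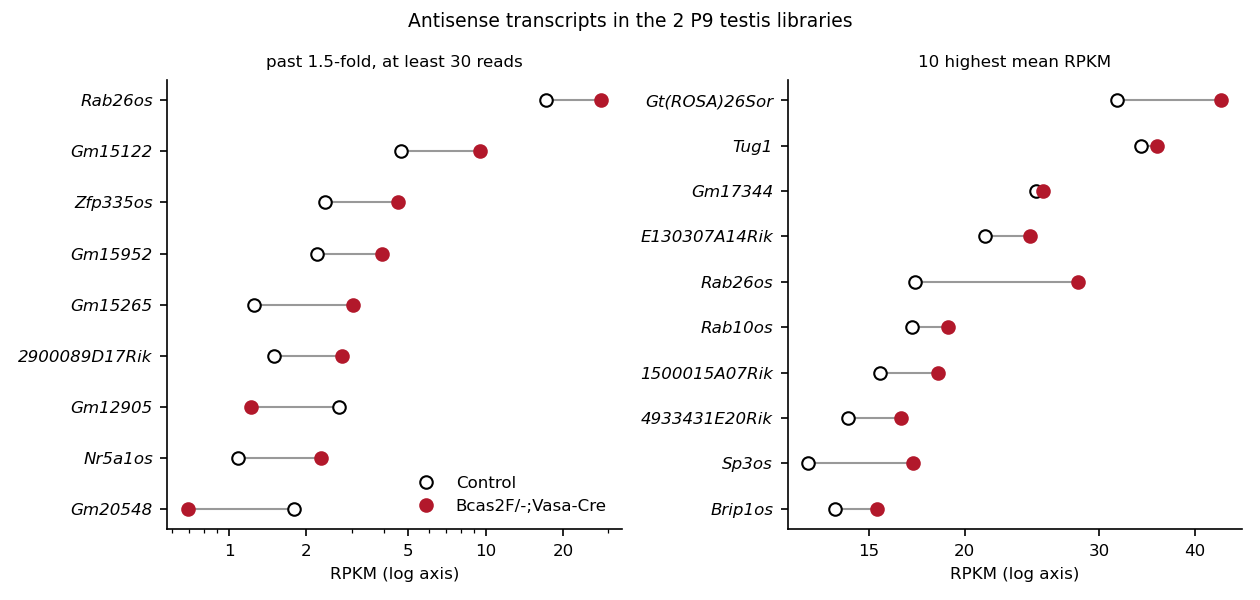
RPKM (log axis) of named antisense transcripts in the control library (open circles) and the Bcas2F/-;Vasa-Cre library (filled circles), 1 library each, joined by a line per transcript. On the left are the members past 1.5-fold with at least 30 reads, of which Gm12905 and Gm20548 had the higher value in the control, and on the right the 10 with the highest mean RPKM, all higher in the Bcas2F/-;Vasa-Cre library.

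The second question was how the members differed between the genotypes. Differences are given as the log2 ratio of RPKM + 1 in the Bcas2F/-;Vasa-Cre over the control library, unless a ratio without the added 1 is named. Of the 238 members, 162 (68.1%) had a ratio above 0, against 53.7% of the 14831 entries that averaged 1 RPKM or more. The median log2 ratio of members was 0.11, with quartiles of -0.06 and 0.31, and that of all expressed entries was 0.02. The 13004 expressed protein-coding genes had a median of 0.01. The 2785 protein-coding genes with a mean RPKM from 1 to 5 had a median of 0.00, with 50.7% above 0 and a median of 208 reads. The 205 members in that range of levels had a median of 0.09, with 65.4% above 0 and a median of 63 reads, and the 33 members averaging 5 RPKM or more had one of 0.19, with 84.8% above 0.

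Ratios of similar size were measured in the other classes of long non-coding transcripts. The 220 expressed lincRNAs had a median log2 ratio of 0.13, with 69.5% above 0. The 163 processed transcripts, non-coding transcripts without an open reading frame, had one of 0.14. The 29 transcripts from bidirectional promoters also had a median of 0.14, and the 11 transcripts within introns of a gene on the same strand one of 0.16.

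**Figure D2:**
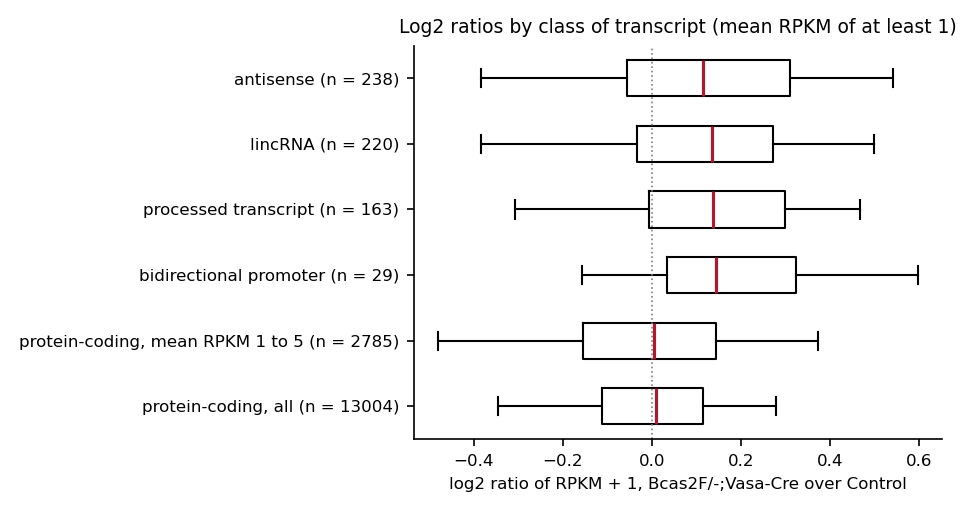
Log2 ratio of RPKM + 1, Bcas2F/-;Vasa-Cre over control, for classes of transcript averaging 1 RPKM or more, where lines mark the median, boxes the quartiles and whiskers the 5th and 95th percentiles over transcripts. The median was 0.11 for antisense transcripts, 0.13 for lincRNAs and 0.01 for protein-coding genes, and the boxes overlap widely.

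On the scale with the added 1, single members rarely differed by much. Past 1.5-fold, 4 members were lower and 10 were higher in the Bcas2F/-;Vasa-Cre library, which is 1.68% and 4.20% of them, against 1.69% and 1.57% of all expressed entries. Of the protein-coding genes with a mean RPKM from 1 to 5, 2.76% were lower and 1.18% higher, and of all expressed protein-coding genes 1.23% and 0.392%. Other non-coding classes also had more higher than lower entries. Of 220 lincRNAs, 5 were lower and 8 higher, of 163 processed transcripts 0 and 4, and of 29 transcripts from bidirectional promoters 0 and 2. Past 2-fold on the same scale there were 0 members in either direction, against 56 lower and 63 higher of all 14831 expressed entries. With 238 members, 0 is near that background. The counts past 1.5-fold depended on the added value, since a pseudocount of 0.1 gave 11 lower and 34 higher members, against 3.08% and 3.06% of all expressed entries. The counting interval of the RPKM ratio lay wholly above 0 for 39 members (16.4%) and wholly below 0 for 2 (0.840%), Gm12905 and Gm20548. Among expressed entries that matched the annotation these shares were 19.8% and 17.9%, with more reads behind them, since all expressed entries had a median of 1207 reads. Members had a median of 73 reads, and no share at equal depth was computed, so the shares of members and of all entries are not like for like. Within the members, far more intervals lay above 0 than below, whereas the background shares above and below were close to each other.

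Of the members past 1.5-fold, 9 had at least 30 reads in all. Gm15122 (chromosome 10, 80282444 to 80283006, minus strand) lies inside Dazap1, a gene for an RNA-binding protein that interacts with DAZ proteins and is needed for spermatogenesis. It was at 4.67 RPKM in the control and 9.52 RPKM in the Bcas2F/-;Vasa-Cre library, from 43 and 85 reads, a log2 ratio of 0.89. Without the added 1, the ratio was 1.03 on the log2 scale, with a counting interval of 0.48 to 1.59. Dazap1 was at 97.2 and 94.95 RPKM, far above Gm15122 and nearly level between the libraries. Gm15122 shared 18.4% of its exonic bases with exons of Dazap1 and the remaining 81.6% lay in Dazap1 introns.

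Rab26os (chromosome 17, 24528248 to 24528744, plus strand) lies within an intron of Rab26, a small GTPase of secretory granules, and shares no exonic base with it. It had 133 reads in the control and 211 in the Bcas2F/-;Vasa-Cre library, and a log2 ratio of 0.68. The ratio without the added 1 was 0.71, with a counting interval of 0.39 to 1.03. Rab26 was far lower than its antisense transcript, at 1.29 and 0.945 RPKM, a log2 ratio of -0.24.

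Zfp335os (chromosome 2, 164911354 to 164919953, plus strand) starts 403 bases from the start of Zfp335, a zinc finger gene on the other strand. It was at 2.37 and 4.56 RPKM, from 38 and 71 reads, and Zfp335 was at 6.93 and 6.84 RPKM. Of its exonic bases, 18.4% were shared. Nr5a1os (chromosome 2, 38712676 to 38720638, plus strand) starts within Nr5a1, the gene for steroidogenic factor 1 of Leydig and Sertoli cells, and shares no exonic base with it. It was at 1.08 and 2.29 RPKM, from 20 and 41 reads, with an RPKM ratio of 1.08 on the log2 scale and a counting interval of 0.27 to 1.93. Nr5a1 was at 78.9 and 79.8 RPKM. In both pairs the antisense transcript was higher in the Bcas2F/-;Vasa-Cre library while the gene on the other strand was level.

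Gm15265, inside the phosphatidylinositol kinase gene Pi4kb, was at 1.25 and 3.03 RPKM, from 17 and 40 reads, and shared 41.8% of its exonic bases. The remaining 58.2% lay in Pi4kb introns. A730011C13Rik, a second member inside Pi4kb and named after its values were seen, was at 0.866 and 1.37 RPKM, and Pi4kb itself at 25.1 and 23.5 RPKM. Gm15952, opposite the methylcrotonyl-CoA carboxylase gene Mccc1, was at 2.21 and 3.96 RPKM, from 23 and 40 reads, and shared 9.83%, with 2.30% in Mccc1 introns. 2900089D17Rik, opposite Bri3, was at 1.49 and 2.75 RPKM, from 43 and 77 reads, with a log2 ratio of 0.59, close to the limit of 1.5-fold, and shared 6.93%. A further 77.4% of its exonic bases lay in introns of Bri3, which was at 69.1 and 71.4 RPKM. Gm15893, inside Msi2, and Junos, head to head with Jun, lay just under that limit at 0.58 and 0.57, and were named after their values were seen.

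The members lower in the Bcas2F/-;Vasa-Cre library had few reads. Gm12905, opposite the Myc-binding protein gene Mycbp, was at 2.68 and 1.21 RPKM, from 25 and 11 reads, and shared 29.9% of its exonic bases. A further 46.0% lay in Mycbp introns. Gm20548, inside Wdfy3, was at 1.79 and 0.692 RPKM, from 24 and 9 reads, and shared 23.9%. Their counting intervals, -2.31 to -0.07 and -2.66 to -0.22 on the log2 scale, were wide. The other two lower members, Gm11706 (15 and 7 reads) and Gm15347 (14 and 6 reads), had fewer than 30 reads, as had 3 of the higher members, Gm15564 (8 and 20), Gm13596 (3 and 10) and Mettl5os (9 and 20), all 5 named after their values were seen. By shared exonic bases, 0 of 55 members that shared none with their partner were lower and 3 were higher, 0 and 2 of 55 that shared under 10%, and 4 and 3 of 98 that shared at least 10%, against 1.69% lower and 1.57% higher of all expressed entries. These are too few members and reads to tell the groups apart.

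**Figure D3:**
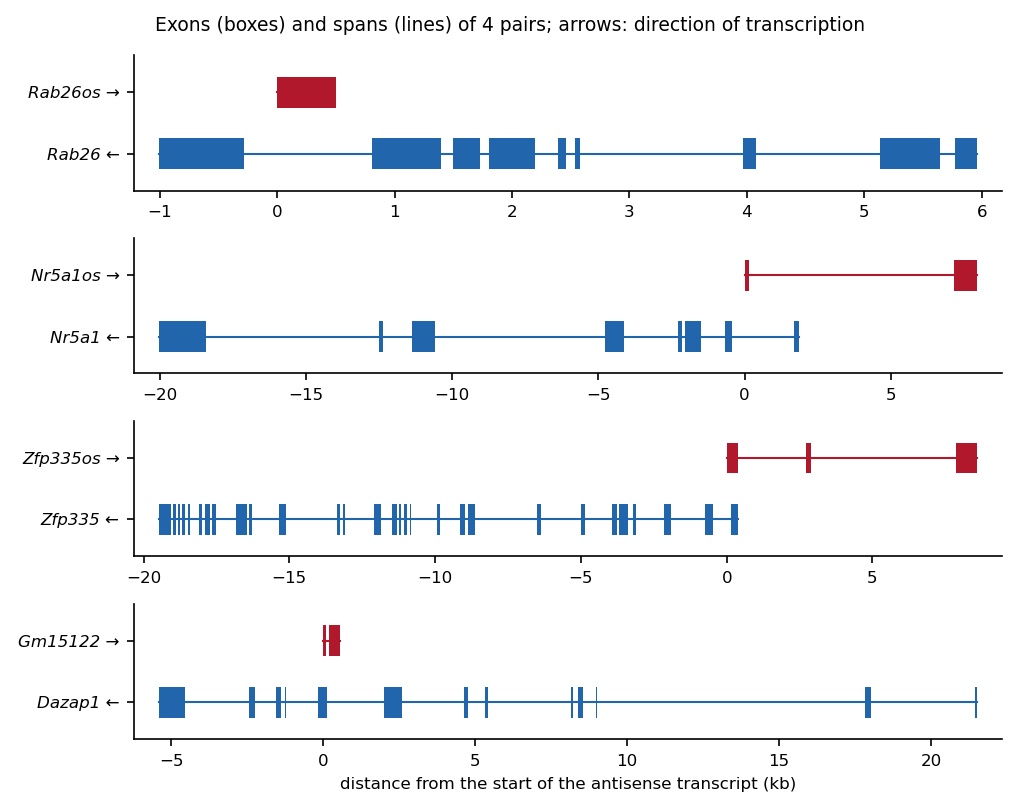
Exons (boxes) and spans (lines) of Rab26os, Nr5a1os, Zfp335os and Gm15122 (upper row of each pair) and of the protein-coding gene on the other strand (lower row), by distance in kb from the start of the antisense transcript. Rab26os lies between exons of Rab26, Nr5a1os and Zfp335os start near the start of their gene and run away from it, and Gm15122 lies far inside Dazap1.

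The third question was how each member compared with the protein-coding gene it overlaps. The partner was the gene on the other strand with the longest overlap of spans. A partner was present for 208 members, 38 of which overlapped more than 1 such gene, and 30 members had none. Of those 30, 18 lay within 1000 bases of a protein-coding gene on the other strand. The pairs had 204 distinct partners. By position, 69 members lay inside the span of their partner, 66 met it tail to tail, 63 head to head, and in 10 the gene lay inside the member. Starts were within 500 bases of each other in 26 of the head-to-head pairs. The median member shared 9.56% of its exonic bases with exons of the partner and had 44.4% of them in its introns. Exonic bases were not shared at all in 55 members, and 35 members lay wholly in introns.

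The partner was expressed, with a mean RPKM of at least 1, in 191 pairs with 187 distinct partners. Partners were at a median of 27.5 RPKM in the control and 28.1 RPKM in the Bcas2F/-;Vasa-Cre library. The median pair had an 11.96-fold higher level of the protein-coding gene, with quartiles of 3.90 and 27.0, and in 109 pairs the member was more than 10-fold below its partner. Antisense entries reached the level of a member more often opposite an expressed gene, in 191 of 1144 (16.7%), than opposite a gene with a mean RPKM under 1, in 17 of 449 (3.79%). Among the 197 antisense entries with no overlapping gene on the other strand in this annotation the share was 15.2%. Among expressed pairs, however, the level of the member followed that of the partner little, with a Pearson r of 0.059 and a Spearman rho of 0.135 for log2 levels over the 191 pairs. Both values of a pair come from the same 2 libraries, and shared bases could feed reads into both.

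**Figure D4:**
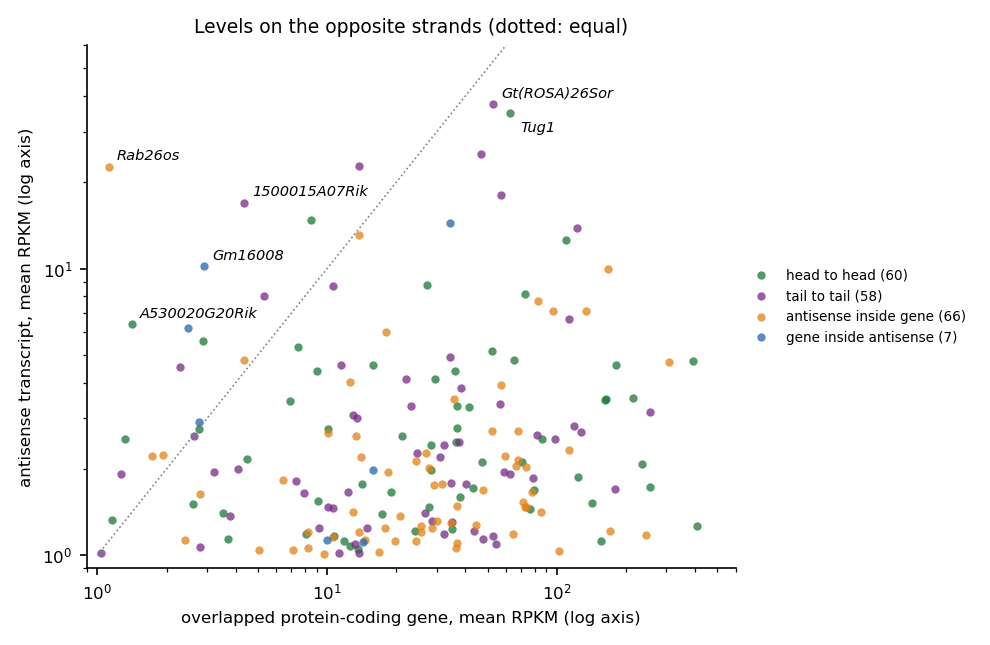
Mean RPKM of each antisense transcript against that of the protein-coding gene it overlaps (both log axes), 191 pairs with an expressed partner, coloured by how they overlap. Most points lie far below the dotted line of equal levels, and 17 lie above it, Rab26os farthest.

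The member was above its partner in 17 pairs. Rab26os was 20.3-fold above Rab26. A530020G20Rik, head to head with the choline transporter-like gene Slc44a3, was 4.54-fold above it, at 5.53 and 7.29 RPKM against 1.49 and 1.33 RPKM. 1500015A07Rik, tail to tail with Afap1l1, an actin filament-associated protein gene, was 3.92-fold above its 4.17 and 4.50 RPKM. Gm16008, which contains the TNF receptor family gene Tnfrsf18, was 3.52-fold above it, at 8.72 and 11.7 RPKM against 3.18 and 2.63 RPKM, and shared 31.3% of its exonic bases. All 4 were higher in the Bcas2F/-;Vasa-Cre library, while 3 of the 4 partners were lower there, none of them past 1.5-fold.

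Some further pairs, named after their values were seen, hold transcripts with known roles. Dnm3os, the host transcript of miR-199a and miR-214, lies wholly in introns of Dnm3 and was at 4.40 and 5.22 RPKM, from 694 and 800 reads, close to Dnm3 at 3.795 and 4.86 RPKM. Wt1os, named after the Sertoli cell gene Wt1, was at 6.15 and 6.25 RPKM. The gene it overlapped in this annotation was Gm11060 and not Wt1, and Gm11060 was at 2.09 and 2.87 RPKM.

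Log2 ratios of members and partners were nearly unrelated. The 187 expressed partners had a median log2 ratio of 0.05 and 63.1% were above 0. Over the 191 pairs, Pearson r was 0.080 and Spearman rho 0.076. Member and partner were both higher in the Bcas2F/-;Vasa-Cre library in 85 pairs and both lower in 22, the member alone was higher in 48 and the partner alone in 36. The member had the larger ratio in 120 pairs, with a median difference of 0.08 between member and partner. By position, r was 0.318 in the 58 tail-to-tail pairs, 0.021 in the 60 head-to-head pairs and -0.002 in the 66 pairs with the member inside the gene. It was -0.693 in the 7 pairs with the gene inside the member, too few to describe a relation. Pairs with under 10% of exonic bases shared had an r of 0.243 over 101 pairs.

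Partners past 1.5-fold were 2 in all. Of the 14 members past that fold, 12 had an expressed partner, and 0 of these partners were past it, with log2 ratios from -0.24 to 0.26. Among all expressed protein-coding genes 1.23% were lower and 0.392% higher past that fold. With 12 partners, 0 is therefore near the background and says nothing about how members and partners relate. The 2 partners that were past it had members that were not. Gm11084 had a log2 ratio of 1.09, and Sp3os, on its other strand, one of 0.43. Sp3, the transcription factor gene that Sp3os also overlaps, was at 53.8 and 52.7 RPKM. Rad54b, a DNA repair gene of homologous recombination, was at 15.4 and 9.67 RPKM, a log2 ratio of -0.62, and Gm11832 inside it was at 4.18 and 3.83 RPKM. The pair of Gm11832 and Rad54b was named after its values were seen.

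**Figure D5:**
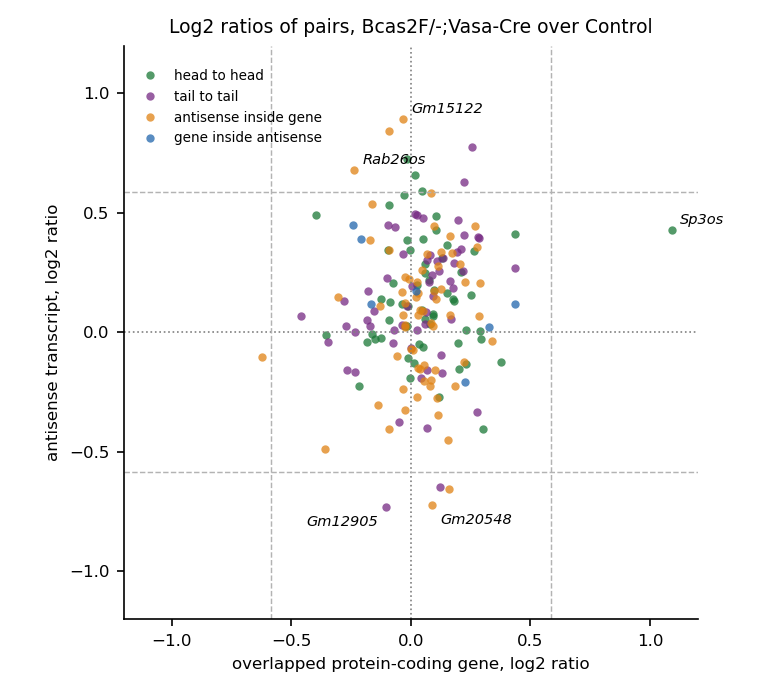
Log2 ratio of RPKM + 1, Bcas2F/-;Vasa-Cre over control, of each antisense transcript (vertical) against the protein-coding gene it overlaps (horizontal), 191 pairs coloured by how they overlap, with dotted lines at 0 and dashed lines at 1.5-fold. Points spread more vertically than horizontally. Only 2 partners lie past 1.5-fold, and no point lies past it on both axes.

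By position, the median log2 ratio of members was 0.16 for tail-to-tail pairs, with 78.8% above 0, and 0.11 for head-to-head pairs, with 68.3% above 0. It was 0.07 for members inside a gene, with 60.9% above 0, 0.12 where the gene lay inside the member and 0.11 for members with no partner. Members that shared no exonic base with their partner had a median of 0.11, those sharing under 10% had 0.15 and those sharing at least 10% had 0.07. In the 35 members wholly in introns of their partner, where unspliced partner RNA could be counted on either strand, the median was 0.07. The part of reads from the other strand in these ratios was not tested.

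Partners were also grouped by the first letters of their symbols, which pick up gene families and leave out genes of like function under other names. The share above 0 was 68.1% over all members, and the groups are too small to be set against it. Opposite developmental transcription factors, 2810468N07Rik, head to head with the testis factor gene Sox8, was at 7.70 and 8.59 RPKM, and Sox8 at 67.9 and 76.8 RPKM. Hoxd3os1 was at 4.46 and 4.36 RPKM, and the homeobox gene Hoxd3 at 8.02 and 10.04 RPKM. Opposite zinc finger genes, 3 of 3 members were above 0 and Zfp335os passed 1.5-fold. The other two were 6530409C15Rik with Zfp800, at 1.46 and 1.88 RPKM, and 1810064F22Rik with Zfp872. Opposite genes with symbols of splicing factor and RNA-binding motif families, 0 of 2 members were above 0. That list left out other RNA-binding protein genes, named after their values were seen, whose members went both ways. Members were above 0 for Dazap1 with Gm15122, Msi2 with Gm15893, Acin1 with 4930579G18Rik (log2 ratio 0.33) and Rbfox2 with 1700109K24Rik (0.091). Below 0 was 1600020E01Rik, head to head with Pcbp1, at -0.19 from 362 and 304 reads. Rbm3os was at 2.22 and 1.95 RPKM, far below the cold-induced RNA-binding protein gene Rbm3 at 235 and 237 RPKM. Gm21844, inside Rbm14, was at 1.59 and 1.25 RPKM and shared 52.6% of its exonic bases.

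Opposite genes of the Usp, Ube and Trim families of the ubiquitin system, 3 of 3 members were above 0. Members opposite ubiquitin ligase genes under other names, named after their values were seen, went both ways. Below 0 were Gm16577 with Shprh at -0.34, Gm15247 with Mid1 at -0.036 and Gm15932 with Dcaf11 at -0.044. Above 0 were Gm10244 with Mkrn1 at 0.25 and Gm16124 with Cul5 at 0.22. Gm16170 with Trim7 was at 1.89 and 2.65 RPKM, 1810062O18Rik with Usp54 at 1.41 and 1.88 RPKM, and 4930539J05Rik with Ube2d3 at 4.55 and 4.69 RPKM. Opposite genes with symbols starting with Cdk, Ccn, Mcm or Pol, 1 of 3 was above 0. Gm26628, inside the RNA polymerase I gene Polr1a, was at 1.61 and 2.29 RPKM, Gm12205, inside Cdkl3, at 1.22 and 0.900 RPKM, and Gm15792, inside the replicative DNA polymerase gene Pole, at 1.57 and 1.08 RPKM. Opposite solute carriers, 4 of 6 were above 0, from Gm17080 with the nucleoside transporter gene Slc29a1, at 1.61 and 1.21 RPKM, to A530020G20Rik. Among the others, Gm16185 within an intron of Slc25a36 was at 6.32 and 7.94 RPKM, 1700034H15Rik with the zinc transporter gene Slc30a1 at 3.90 and 4.32 RPKM, 1700112D23Rik with the glucose transporter gene Slc2a2 at 3.68 and 3.98 RPKM, and 5033403F01Rik with Slc35b3 at 1.17 and 0.980 RPKM. Of the members opposite histone genes, Gm20632 and Gm20633 lie over Hist2h2aa2 and Hist2h2aa1, near-identical copies listed at 0 in both libraries, so reads of this locus are uncertain. Gm20632 was at 1.51 and 1.49 RPKM and Gm20633 at 1.65 and 1.44 RPKM. There were 0 members opposite ribosomal protein genes. Within the lists as drawn by symbol, Zfp335os was the member past 1.5-fold, beside Nr5a1os of the marker lists.

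As partner, 1 member had a gene of the lists of cell type markers, Nr5a1os with the Leydig marker Nr5a1. The markers themselves differed between the libraries in opposite directions by cell type. All 5 germ cell markers were lower in the Bcas2F/-;Vasa-Cre library, with a summed RPKM of 466 and 359, as were the 7 expressed of 8 markers of meiotic prophase, with sums of 126 and 89.1. Markers of differentiating spermatogonia had sums of 230 and 165, with 4 of 5 lower, and those of undifferentiated spermatogonia 188.5 and 155.6, with 5 of 8 lower. By RT-PCR of replicated P9 testes, the study reports similar levels in both genotypes for Ddx4, Dazl, Kit, Stra8, Sohlh1 and Sohlh2 of these lists. It reports lower levels in the mutant for Dmc1, Sycp1, Sycp3 and Smc1b. Sertoli cell markers were higher in 8 of 9 expressed, with sums of 3213 and 3512, and Leydig cell markers in 5 of 7, with sums of 466 and 510. Myoid markers had sums of 523 and 489, endothelial 36.8 and 34.8, and macrophage 35.4 and 29.3, the last with 4 of 4 lower. Blood markers had sums of 999 and 945, but 7 of 8 were lower, with a median log2 ratio of -0.70, the largest shift of these lists. The labelled tissue thus showed both its germ cell and its somatic markers. In whole testis, fewer cells of a type and less RNA per cell cannot be told apart, and the part of the cell makeup in the ratios of antisense transcripts was not tested.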

How the data were processed

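RNA from whole testes of 9-day-old mice was sequenced in 2 libraries, 1 per genotype. Per the labels and the study's methods, the authors removed adaptors and low-quality reads, aligned paired-end reads with TopHat2 2.0.9 (mm10 in the submitters' processing notes), used HTSeq for counting and deposited an RPKM value per gene and library. The annotation release, gene lengths and strand setting are not given in the sources used here. RPKM corrects for gene length and depth, not for RNA composition.

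From these values, 37606 entries were matched by Ensembl identifier to GENCODE M21 (GRCm38). Ratios are log2 of RPKM + 1, which understates changes of weakly expressed genes, and the threshold was 1.5-fold. Whole reads were recovered from the ratio of the RPKM values of both libraries and the annotated length. A whole-read ratio was found for all 238 members, with a length within 1 base of the mean transcript length in 177. In the other 61 reads could be wrong by a whole factor. Counting intervals are 95% Clopper-Pearson intervals of the mutant share of reads, given as log2 RPKM ratios without the added 1, and cover counting error only. With 1 library per genotype no test was run. The steps were tested on simulated data.

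Named members were the 10 highest, those past 1.5-fold with at least 30 reads, the 4 highest above their partner, the 2 on each side of the limit, and those whose partner is in a marker or function list. Members, lists and alternatives were chosen with earlier results of these data known. Promoters came from RefSeq (GRCm38.p6). Software was Python 3.11.15, pandas 2.3.3, numpy 2.4.6, matplotlib 3.10.9 and scipy 1.17.1.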

Additional observations from a re-analysis of the deposited data

How the results depend on the processing

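Counts past 1.5-fold, 4 lower and 10 higher members, moved with the setting. They were 11 and 34 with a pseudocount of 0.1, 14 and 36 with one of 0.01, and 10 and 29 when each library was scaled to total 1000000, a step that also makes the added 1 smaller relative to the values. Requiring a mean RPKM of at least 5 left 0 lower and 2 higher of 33, under 10% of exonic bases shared left 0 and 5, at least 30 reads left 2 lower, and all antisense entries above 0 in a library gave 12 and 24. With the pseudocount of 0.1, 3.08% of all expressed entries were lower and 3.06% higher past 1.5-fold. For the other alternative settings that share was not computed, so their counts cannot be set against a background. The median log2 ratio of members was 0.15 and 0.16 with the pseudocounts of 0.1 and 0.01, 0.19 at a mean RPKM of at least 5, where 84.8% of members were above 0, and 0.028 without a filter, where many entries are near 0 in both libraries. The median of the partners was 0.088 and 0.022 in those last settings, and members above their partner, 17 in the report, numbered 3 and 71. The r of member and partner ratios was 0.19 at a mean RPKM of at least 5 and 0.24 with under 10% shared. The ratio of 1 named member, Gm20632, changed sign, from -0.010 to 0.0077 with libraries scaled to total 1000000, and all 160 recomputed ratios of 40 named members stayed within their counting intervals. Those intervals come from the same reads and surround the ratio without an added value, which small pseudocounts approach. Staying inside was therefore largely fixed beforehand and does not show that the ratios are robust. No paired analysis was possible because each genotype had 1 library, and for the same reason no library could be left out. Depth limits single members, of which 35 had fewer than 30 reads.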
